A study of Mus musculus with 16 samples.

Results

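The genes described here are 47 genes of the cell cycle and DNA replication, chosen by symbol from the 56941 genes of the count table and measured in fibroblasts cultured from mouse gum (murine gingival fibroblasts, mGF). They comprise 23 genes of mitosis, 16 of S phase, the 3 D cyclins and 5 inhibitors of cyclin-dependent kinases, and all 47 passed the filter on low counts that kept 16306 genes. The mGF were grown out of the gingiva around the maxillary second molar of wild-type C57Bl6 mice aged 3 to 6 months, kept in DMEM with 20% fetal bovine serum and used at passages 2 to 8. Bulk RNA was sequenced after 24 h in 4 conditions of 4 libraries each. BSA (control) received the 200 μM vehicle (libraries 1 to 4), IL-1β the cytokine at 1 ng/mL over that vehicle (5 to 8), palmitate the fatty acid at 200 μM bound to BSA (9 to 12), and palmitate + IL-1β both agents at these doses (13 to 16). The labels do not say whether the libraries of a condition came from separate cultures or animals, so p-values measure the spread between these libraries, which may be technical.

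A dividing cell commits to a new round when D cyclins, bound to Cdk4 or Cdk6, release E2F factors from the retinoblastoma protein. E2F factors then drive genes that load and fire replication origins and make deoxynucleotides, and later in the cycle a MuvB-containing complex with B-Myb and FoxM1 drives the genes of mitosis. Inhibitors of the INK4 family (Cdkn2a, Cdkn2b, Cdkn2c) block Cdk4 and Cdk6, whereas those of the Cip/Kip family (Cdkn1a, Cdkn1b) bind several cyclin-kinase complexes. In RNA from whole cultures, fewer cells in a phase and less RNA per cell of that phase cannot be told apart.

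Libraries held 21234789 to 92752515 counts on genes, the highest in palmitate 10. The cultures carried fibroblast RNA, with Col1a1 at 13210 to 15640 counts per 1000000 counts on genes (CPM) and Vim at 4204 to 5872 CPM, although the fibroblast markers Lum and S100a4 did not exceed 2.27 and 3.04 CPM. The 9 epithelial markers together reached at most 5.35 CPM, the 6 endothelial ones 2.75 CPM and the 9 leukocyte ones 4.65 CPM. Summed epithelial markers, mostly Dsp, lay at 4.65 to 5.09 CPM in BSA (control) and at 2.18 to 2.65 CPM in palmitate + IL-1β. Levels below are CPM on library sizes scaled by the trimmed mean of M values, and a gene is said to rise or fall where edgeR's quasi-likelihood test over the 16306 genes gave a Benjamini-Hochberg adjusted p under 0.05.

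Short motifs known for mitosis and S phase genes were counted in the promoters, and 6 windows are shown, 4 from mitosis and S phase genes that carry these cores and 2 from the inhibitors that moved most. RefSeq promoters (250 bases before to 50 after a start) were matched for 37 of the 47 genes. The CHR core, to which the MuvB complex binds (TTTGAA or TTTAAA), was found in 17 of 18 mitosis promoters (94.4%), against 27.6% of 32851 promoters of the same length. CCAAT, the core bound by NF-Y, was present in 16 of the 18 (88.9%), against 37.4% of all promoters. Both motifs stood together in 15 of the 18 (83.3%), against 10.7%. Of 14 S phase promoters, 9 also held CCAAT (64.3%) and 4 a CHR core (28.6%). An E2F core (TTTCGCGC, TTTGGCGC, TTTCCCGC or TTTGCCGC) was found in 6 of the 14 (42.9%), against 2.26% of all and 5.56% of the mitosis ones. All cores were searched on both strands, and these matches are letters in a window, not measured binding. In the 220-base windows below (200 bases before the start and 20 from it, 5′ to 3′ along the gene, GRCm39), capitals mark these cores on either strand.
Mki67, chr7:135318089-135318308, minus strand: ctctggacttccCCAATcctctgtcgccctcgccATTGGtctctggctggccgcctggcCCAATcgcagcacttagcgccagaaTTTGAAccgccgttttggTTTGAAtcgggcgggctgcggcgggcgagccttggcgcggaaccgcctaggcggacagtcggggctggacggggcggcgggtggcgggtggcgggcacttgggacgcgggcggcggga
Ccnb2, chr9:70328817-70329036, minus strand: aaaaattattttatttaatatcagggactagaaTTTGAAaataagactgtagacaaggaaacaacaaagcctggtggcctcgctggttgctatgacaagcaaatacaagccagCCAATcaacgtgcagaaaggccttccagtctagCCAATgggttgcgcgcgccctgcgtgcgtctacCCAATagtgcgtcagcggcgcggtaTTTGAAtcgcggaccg
Mcm5, chr8:75835937-75836156, plus strand: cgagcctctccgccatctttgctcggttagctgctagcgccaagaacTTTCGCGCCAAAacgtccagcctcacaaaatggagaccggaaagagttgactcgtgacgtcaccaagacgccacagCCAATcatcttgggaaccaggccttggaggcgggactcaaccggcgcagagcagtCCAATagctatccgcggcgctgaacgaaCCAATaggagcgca
Rrm2, chr12:24758053-24758272, plus strand: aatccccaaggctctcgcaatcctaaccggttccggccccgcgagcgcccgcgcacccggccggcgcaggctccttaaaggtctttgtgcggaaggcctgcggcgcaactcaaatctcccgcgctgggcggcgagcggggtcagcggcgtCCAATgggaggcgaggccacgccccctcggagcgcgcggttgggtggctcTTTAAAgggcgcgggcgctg
Cdkn1b, chr6:134897164-134897383, plus strand: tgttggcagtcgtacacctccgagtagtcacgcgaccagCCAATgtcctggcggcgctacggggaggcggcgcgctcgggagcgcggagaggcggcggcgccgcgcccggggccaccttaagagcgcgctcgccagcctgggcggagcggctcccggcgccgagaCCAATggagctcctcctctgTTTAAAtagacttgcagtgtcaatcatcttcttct
Cdkn2b, chr4:89229250-89229469, minus strand: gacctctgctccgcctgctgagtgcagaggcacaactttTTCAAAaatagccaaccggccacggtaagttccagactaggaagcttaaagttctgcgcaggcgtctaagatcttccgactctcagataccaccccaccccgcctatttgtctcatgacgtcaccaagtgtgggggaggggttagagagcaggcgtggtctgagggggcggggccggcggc
Mki67 and Ccnb2, whose RNAs moved in opposite directions with palmitate + IL-1β, both carry CHR and CCAAT cores. In Mcm5, overlapping E2F cores on the opposite strands make up the first run of capitals. The Rrm2 window holds CCAAT and CHR cores and no E2F core, the Cdkn1b window holds CCAAT and CHR cores, and in the Cdkn2b window the only core is a CHR on the reverse strand.

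Palmitate, IL-1β and their combination each moved some of the 47 genes, in both directions and by less than 2-fold in every case. Palmitate raised 11 and lowered 7 of them, where 19.8% of all tested genes rose and 17.5% fell (37.3% in all). IL-1β raised 8 and lowered 3, against 10.1% and 4.97% (15.1% in all), and its count of 11 went to 7 without BSA (control) 1. Palmitate + IL-1β raised 6 and lowered 17, against 24.8% and 22.5% (47.3% in all). As shares of the 47, the rises came to 23.4%, 17.0% and 12.8% and the falls to 14.9%, 6.38% and 36.2%. Libraries lay wholly above BSA (control) for 11 genes with palmitate (19.5% of all tested genes), 11 with IL-1β (11.1%) and 4 with the combination (22.2%), and wholly below it for 7 (16.5%), 5 (6.59%) and 14 (19.3%). The median log2 fold change of the 47 was 0.01 for palmitate, 0.04 for IL-1β and -0.09 for the combination, where the median of all tested genes lay between -0.0049 and 0.0017. The split depended on the scaling, since upper-quartile normalization gave 8 rises and 9 falls for palmitate, 7 and 6 for IL-1β, and 5 and 28 for the combination.

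**Figure D1:**
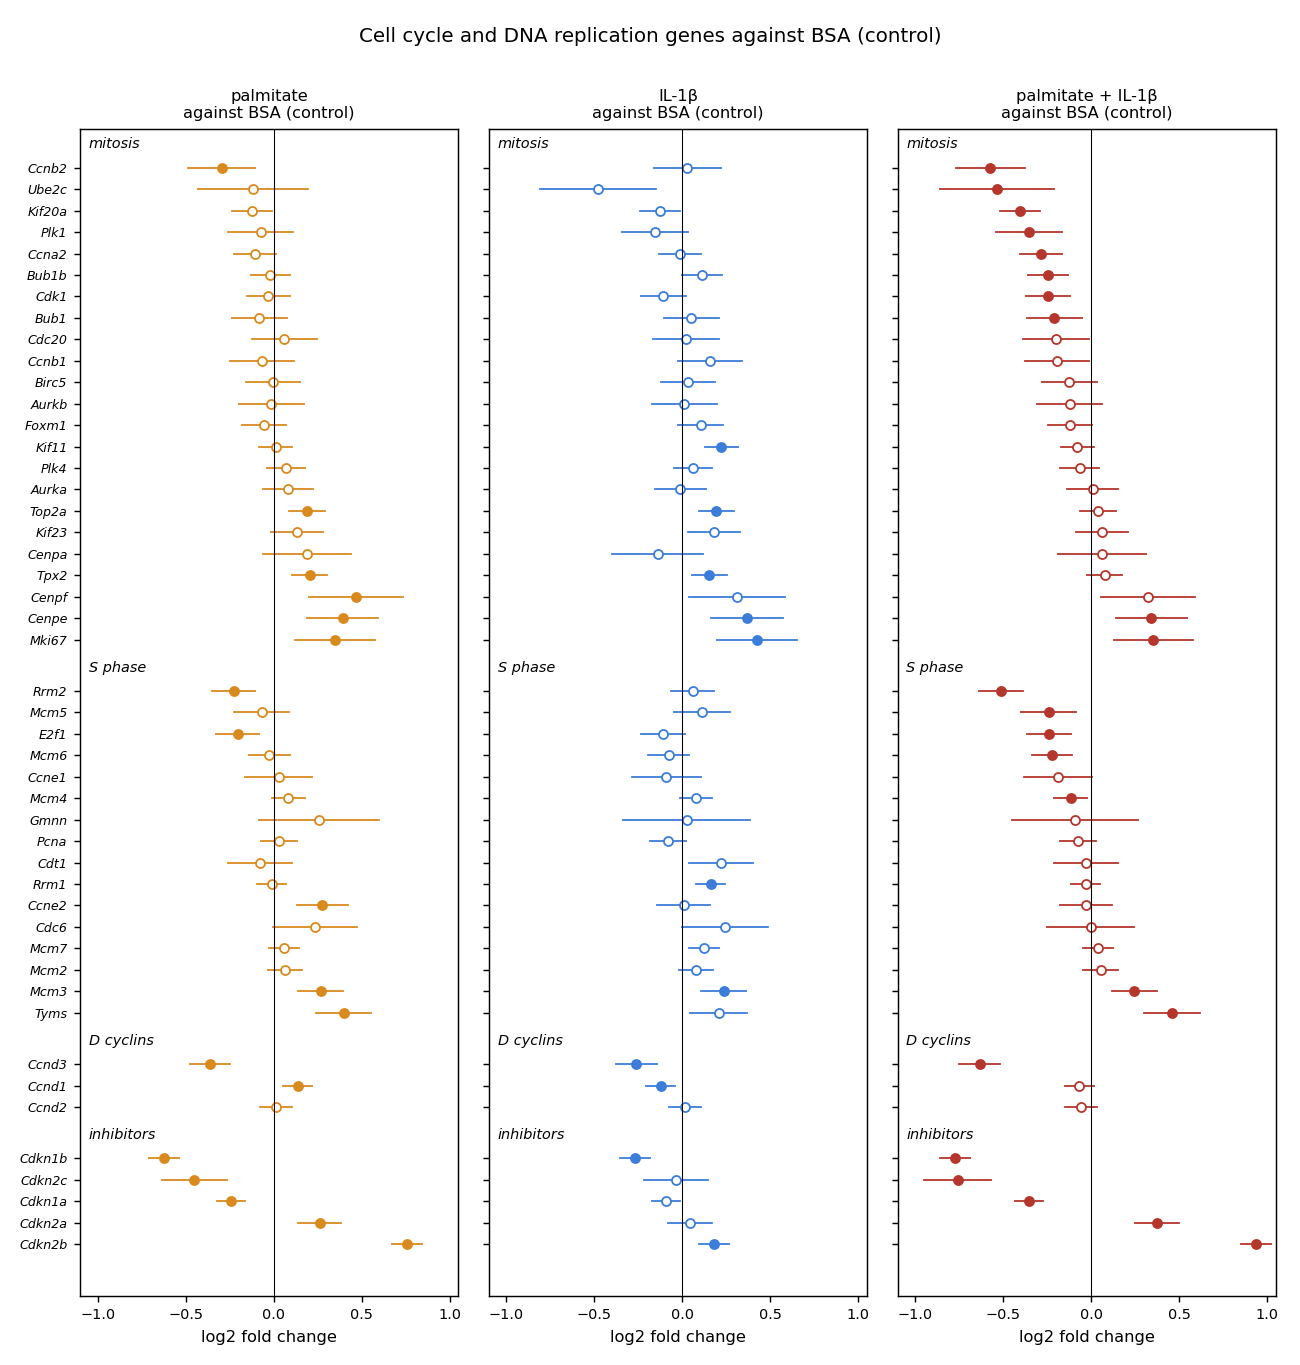
Log2 fold change (x axis) of each of the 47 genes (y axis, grouped by role) for palmitate, IL-1β and palmitate + IL-1β against BSA (control), with 4 libraries per condition. Points are the fitted values, bars their 95% intervals and filled points the genes past the threshold. Filled points stand on both sides of 0 in each panel, with 17 below 0 in the combination, and Cdkn2b lies farthest to the right under palmitate and the combination.

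The cyclin-dependent kinase inhibitors held both the largest rise (Cdkn2b) and the largest fall (Cdkn1b) among the 47 genes with palmitate and with the combination. Palmitate raised Cdkn2b and Cdkn2a and lowered Cdkn1b, Cdkn1a and Cdkn2c, so that all 5 were called, and all 5 kept those directions and calls in palmitate + IL-1β. IL-1β alone changed 2 of them, Cdkn2b upwards and Cdkn1b downwards. Of all tested genes, 37.3% were called with palmitate, 47.3% with the combination and 15.1% with IL-1β. The members run in opposite directions, and the summed level of the 5 lay within 380 to 438 CPM in the 16 libraries. By condition it was 398 to 404 CPM in BSA (control) and 380 to 405 CPM in IL-1β. With palmitate it was 410 to 425 CPM and with the combination 412 to 438 CPM, so both lay above all controls. The means were 401 CPM in BSA (control), 391 CPM in IL-1β, 418 CPM in palmitate and 425 CPM in the combination. This sum is led by Cdkn1a and Cdkn2b, and it was not taken under upper-quartile normalization.

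Cdkn2b encodes p15INK4b, an inhibitor of Cdk4 and Cdk6, and lies at chr4:89223204-89229276. Its level was 96.8, 92.5, 92.5 and 95.4 CPM in BSA (control), 101, 108, 115 and 104 CPM in IL-1β, 162, 157, 162 and 157 CPM in palmitate, and 184, 177, 189 and 173 CPM in palmitate + IL-1β. The 4 conditions did not overlap and stood in that order. Palmitate raised it 1.69-fold (log2 0.76 ± 0.043 SE, adjusted p = 1.87e-15) without IL-1β and 1.69-fold (adjusted p = 3.15e-15) in its presence. IL-1β raised it 1.13-fold both without palmitate (adjusted p = 0.00356) and with it (adjusted p = 0.00446). The interaction term, which asks whether the palmitate effect differed with IL-1β, was -0.00 with a 95% interval of -0.12 to 0.12.

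Its neighbour Cdkn2a (chr4:89192708-89212890) yields the transcripts of p16INK4a and p19ARF, which counts per gene do not separate. It read 36.1, 33.1, 37.5 and 41 CPM in BSA (control), 43.6, 35.6, 38.5 and 34.5 CPM in IL-1β, 44.5, 43.5, 43.3 and 45.7 CPM in palmitate and 47, 45.2, 51.2 and 48.1 CPM in palmitate + IL-1β. The palmitate libraries and those of the combination all lay above BSA (control), while the IL-1β libraries spread across it. Cdkn2a rose 1.20-fold with palmitate (adjusted p = 0.00142) and 1.30-fold with the combination (adjusted p = 1.18e-05), and for IL-1β the fold was 1.03 (95% interval of the log2 value -0.08 to 0.17).

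Cdkn1b encodes p27Kip1 and had the lowest fitted log2 fold change of the 47 genes with palmitate and with the combination. Its level was 62, 63.9, 64.8 and 65.3 CPM in BSA (control), 54.7, 55.1, 50.3 and 52.7 CPM in IL-1β, 41.4, 41.3, 41.9 and 41.4 CPM in palmitate, and 37.9, 36, 38.2 and 37.4 CPM in palmitate + IL-1β. No 2 conditions overlapped, and the order was the reverse of that of Cdkn2b. Palmitate lowered Cdkn1b to 0.648 of BSA (control) (log2 -0.63 ± 0.043 SE, adjusted p = 1.94e-13), IL-1β to 0.831 (adjusted p = 2.60e-05) and the combination to 0.584 (adjusted p = 7.75e-16). The further fall from palmitate to the combination, to 0.901 (adjusted p = 0.0255), was lost under 6 of 14 alternatives, among them leaving out any 1 of the 4 palmitate libraries.

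Cdkn2c, encoding the INK4 inhibitor p18INK4c, was low in all libraries, with 117 to 584 counts. It stood at 8.94, 8.5, 8.36 and 8.04 CPM in BSA (control), 7.65, 9.25, 8.1 and 8.04 CPM in IL-1β, 5.68, 6.44, 7.16 and 5.22 CPM in palmitate and 4.79, 4.86, 4.98 and 5.42 CPM in palmitate + IL-1β. Palmitate libraries were below every library without palmitate, and IL-1β libraries overlapped BSA (control). The falls were to 0.731 with palmitate (adjusted p = 0.000247) and to 0.591 with the combination (adjusted p = 9.62e-08). The difference between those 2 conditions, a log2 value of -0.31 (adjusted p = 0.0466), was lost under 7 of 14 alternatives, including without palmitate 10 or 11 and without palmitate + IL-1β 13, 14 or 15.

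Cdkn1a encodes p21Cip1, a target of p53. It read 199, 200, 201 and 190 CPM in BSA (control), 178, 188, 193 and 181 CPM in IL-1β, 164, 161, 166 and 176 CPM in palmitate and 155, 160, 155 and 148 CPM in palmitate + IL-1β. Every palmitate library was below every library without palmitate, and the highest IL-1β library exceeded the lowest of BSA (control). It fell to 0.845 with palmitate (adjusted p = 1.55e-05) and to 0.784 with the combination (adjusted p = 1.75e-08), and for IL-1β the value was 0.937 (adjusted p = 0.13).

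**Figure D2:**
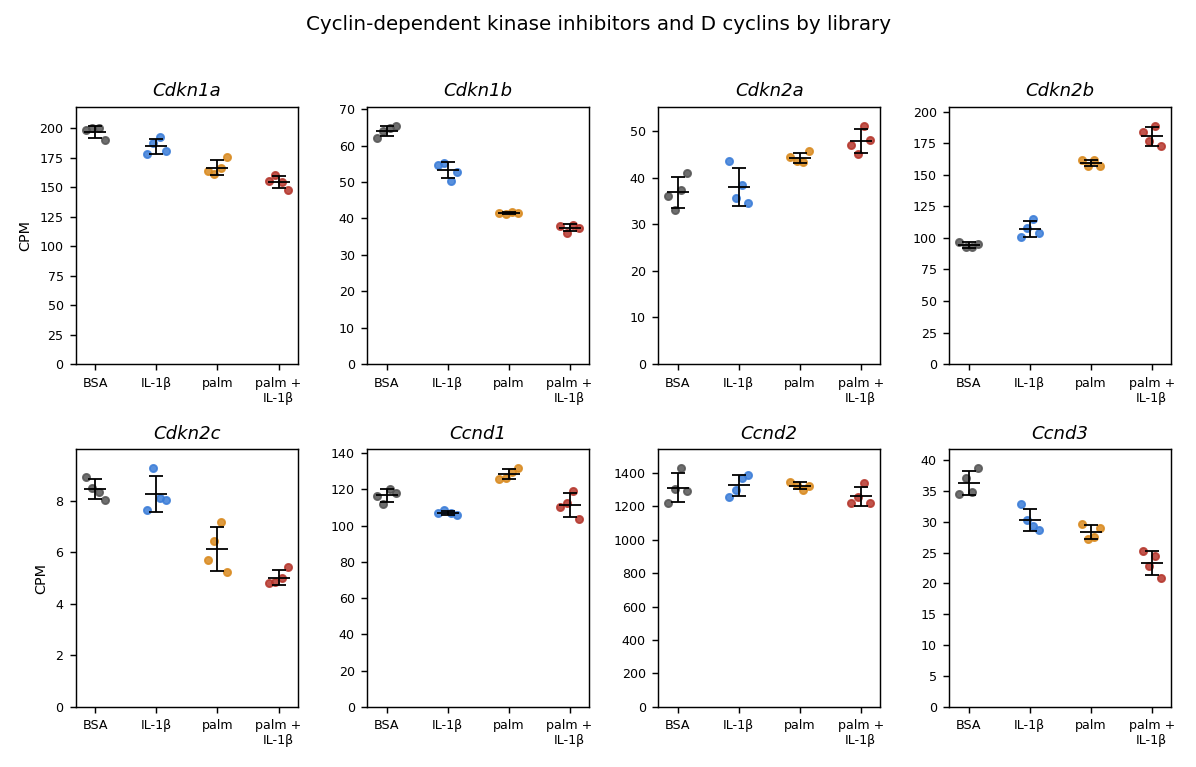
CPM (y axis, from 0) of the 5 inhibitors and the 3 D cyclins in BSA (control), IL-1β, palmitate (palm) and palmitate + IL-1β, 1 point per library, with the mean and SD of 4 libraries as black bars. Cdkn2b climbs from a mean of 94.3 to 181 CPM and Cdkn1b descends from 64.0 to 37.4 CPM across the 4 conditions, while Ccnd2 stays between 1219 and 1427 CPM.

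Among the D cyclins, which carry growth signals to Cdk4 and Cdk6, each gene behaved differently. Ccnd2 had the highest level per length of all 47 genes, at 207 ± 13.6 CPM per kb of transcript in BSA (control) (SD, n = 4), followed by Cdkn1a at 103 ± 2.63 CPM per kb. It passed the test in no comparison, and its libraries overlapped at 1220 to 1427 CPM in BSA (control), 1254 to 1387 CPM in IL-1β, 1297 to 1347 CPM in palmitate and 1219 to 1341 CPM in palmitate + IL-1β. Its 95% intervals against BSA (control) ran from -0.08 to 0.10 for palmitate, from -0.07 to 0.11 for IL-1β and from -0.15 to 0.03 for the combination (log2).

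Ccnd3 fell with either agent and further with both. Its level was 34.5, 37, 34.9 and 38.6 CPM in BSA (control), 32.8, 30.3, 29.2 and 28.7 CPM in IL-1β, 29.6, 27.2, 27.5 and 29 CPM in palmitate and 25.2, 22.8, 24.5 and 20.9 CPM in palmitate + IL-1β. BSA (control) was above all other libraries and the combination below all others, with palmitate and IL-1β overlapping between them. The log2 fold changes were -0.36 (adjusted p = 7.63e-06), -0.26 (adjusted p = 0.00191) and -0.63 (adjusted p = 1.79e-10), and the interaction was -0.01 (95% interval -0.17 to 0.16). Of the Ccnd3 transcript, 43.6% matches other transcripts at 95% identity or more, chiefly its pseudogene, so its level is uncertain.

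Ccnd1 was the 1 gene of the 47 whose calls against BSA (control) had opposite directions for palmitate and IL-1β. It read 116, 112, 120 and 118 CPM in BSA (control), 107, 108, 107 and 106 CPM in IL-1β, 126, 126, 129 and 132 CPM in palmitate and 110, 112, 119 and 104 CPM in palmitate + IL-1β. Palmitate libraries lay above and IL-1β libraries below the controls, and the combination spread over both IL-1β and the controls. The rise with palmitate was 1.10-fold (adjusted p = 0.0101) and the fall with IL-1β was to 0.918 (adjusted p = 0.0448), and the direct difference between palmitate and IL-1β was 1.20-fold (adjusted p = 1.12e-05). The IL-1β call was lost under 9 of 13 alternatives and the palmitate call under 3 of 14, including upper-quartile normalization.

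Among the 23 mitosis genes, palmitate raised 5 and lowered 1, IL-1β raised 5 while the other 18 were not called, and palmitate + IL-1β raised 2 and lowered 8. As shares of the 23, rises came to 21.7% with palmitate, 21.7% with IL-1β and 8.7% with the combination, against 19.8%, 10.1% and 24.8% of all tested genes. The falls with palmitate and with the combination came to 4.35% and 34.8%, against 17.5% and 22.5%. The genes that rose with palmitate were Mki67, Cenpe, Cenpf, Top2a and Tpx2, and with IL-1β Mki67, Cenpe, Kif11, Top2a and Tpx2. The combination lowered Ccnb2, Ube2c, Kif20a, Plk1, Ccna2, Bub1b, Cdk1 and Bub1 and raised Mki67 and Cenpe. The median log2 fold change of the group was -0.00, 0.05 and -0.12. In the combination, 7 of the group had all libraries below BSA (control) and 1 had all above, as did 19.3% and 22.2% of all tested genes.

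The falls with both agents included genes of mitotic cyclins and the spindle checkpoint, and the motor gene Kif20a. Of the other motor genes, Kif11 and Kif23 were not called with the combination and Cenpe rose. Ccnb2 encodes cyclin B2, the partner of Cdk1. It read 9.83, 15.5, 11.2 and 12.3 CPM in BSA (control), 11.3, 12.8, 13.6 and 11.8 CPM in IL-1β, 10.1, 9.81, 9.7 and 10.3 CPM in palmitate and 8.33, 8.44, 8.52 and 7.48 CPM in palmitate + IL-1β. The combination lay below every other library, and BSA (control) had the widest spread. Its log2 fold change was -0.57 ± 0.1 (SE) with the combination (adjusted p = 1.80e-05) and -0.30 ± 0.097 with palmitate (adjusted p = 0.0165), the latter lost without BSA (control) 2 or without palmitate 10 (adjusted p up to 0.152).

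Kif20a, a kinesin of the central spindle and cytokinesis, read 36.4, 38, 36.6 and 37.1 CPM in BSA (control), 31.1, 35.4, 35.2 and 33.6 CPM in IL-1β, 35.5, 34.7, 34.6 and 31 CPM in palmitate and 26.4, 29.9, 30 and 25.6 CPM in palmitate + IL-1β. Either agent alone left it just below the controls, and both together below all other libraries. The log2 fold change was -0.40 with the combination (adjusted p = 6.80e-07), while -0.12 with palmitate (adjusted p = 0.0926) and -0.13 with IL-1β (adjusted p = 0.141) were not past the threshold. Of its exons, 54.8% overlap Cdc23 on the opposite strand, and the counts were made by strand.

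Ccna2, encoding cyclin A2, which acts in S phase and at mitotic entry, read 51.5, 52.3, 55 and 56.8 CPM in BSA (control), 46.3, 55.6, 58.5 and 52.9 CPM in IL-1β, 47.6, 52.9, 49.8 and 49.1 CPM in palmitate and 42.4, 48.9, 44.9 and 40.8 CPM in palmitate + IL-1β. Only the combination lay wholly below the controls, at log2 -0.28 (adjusted p = 0.000292). Bub1b, encoding the spindle checkpoint protein BubR1, read 26.3, 26.4, 26.1 and 27.4 CPM in BSA (control), 27, 30, 30.7 and 26.9 CPM in IL-1β, 27.1, 26.8, 25.2 and 25.5 CPM in palmitate and 20.5, 22.5, 23.4 and 23.4 CPM in palmitate + IL-1β. The combination was below all other libraries, at log2 -0.24 against BSA (control) (adjusted p = 0.000745), -0.36 against IL-1β (adjusted p = 9.08e-06) and -0.22 against palmitate (adjusted p = 0.00923).

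Of the other genes that fell with the combination, Ube2c had a log2 fold change of -0.53. Its product passes ubiquitin to targets of the anaphase-promoting complex. The value was -0.35 for the mitotic kinase Plk1, -0.24 for Cdk1, the kinase of mitotic entry, and -0.21 for the checkpoint kinase Bub1. These 4 were called with neither agent alone, although for Ube2c the value with IL-1β was -0.48 (adjusted p = 0.053), and none of the 4 had a called interaction. Ube2c was low, at a mean of 3.89 CPM in BSA (control) and 2.65 CPM in the combination. The Aurora kinase genes Aurka and Aurkb, Plk4 of centriole duplication, the centromeric histone gene Cenpa, Kif23 of cytokinesis, Birc5 (survivin) and the anaphase activator Cdc20 were called in none of the 7 contrasts. Their log2 fold changes against BSA (control) in the combination ran from -0.20 for Cdc20 to 0.06 for Cenpa and Kif23. Ccnb1, encoding cyclin B1, and Foxm1, a transcription factor of mitotic genes, fell only against IL-1β, by 0.35 and 0.22 on the log2 scale. Of the Ccnb1 transcript, 51.2% matches other transcripts at 95% identity or more.

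The largest rises of the group were those of Mki67, Cenpe and Cenpf, which were chosen for full values after these were seen. Mki67 encodes the Ki-67 protein of the chromosome periphery, a common proliferation marker. It read 129, 135, 120 and 134 CPM in BSA (control), 176, 170, 165 and 184 CPM in IL-1β, 157, 189, 160 and 152 CPM in palmitate and 136, 145, 208 and 174 CPM in palmitate + IL-1β. All treated libraries were above the controls, with the widest spread in the combination. The log2 fold changes were 0.35 with palmitate (adjusted p = 0.03), 0.43 with IL-1β (adjusted p = 0.0247) and 0.35 with the combination (adjusted p = 0.0221). The palmitate call was lost under 6 of 14 alternatives, the IL-1β call under 5 of 13 and that of the combination under 6 of 14, with values of 0.27 to 0.39, 0.38 to 0.45 and 0.23 to 0.43.

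Cenpe encodes the kinesin that carries chromosomes to the spindle equator, and Cenpf a kinetochore protein. Cenpe read 36.5, 33.8, 28.2 and 39.1 CPM in BSA (control), 44.5, 46.4, 43.9 and 43.1 CPM in IL-1β, 44.8, 50.8, 41.2 and 43 CPM in palmitate and 37.5, 41.4, 51.2 and 45 CPM in palmitate + IL-1β. It rose by a log2 value of 0.39 with palmitate (adjusted p = 0.00685), 0.37 with IL-1β (adjusted p = 0.0259) and 0.34 with the combination (adjusted p = 0.0124), and only the combination overlapped the controls. The IL-1β call of Cenpe was lost under 5 of 13 alternatives, without BSA (control) 2 or without any 1 of the 4 IL-1β libraries. Cenpf read 30.8, 32.9, 30.5 and 33.5 CPM in BSA (control), 40.1, 41.9, 37.6 and 38.9 CPM in IL-1β, 40.4, 52.2, 40.7 and 41.4 CPM in palmitate and 31.9, 34.4, 52.5 and 41 CPM in palmitate + IL-1β. Palmitate raised Cenpf by 0.47 (adjusted p = 0.0157), a call lost without palmitate 10 and with no filter on low counts (adjusted p up to 0.0592). The values of 0.31 with IL-1β (adjusted p = 0.167) and 0.32 with the combination (adjusted p = 0.0707) were not past the threshold. Palmitate 10 and palmitate + IL-1β 15 were the highest of their conditions for Mki67, Cenpe and Cenpf alike. With both left out, a choice made after seeing the data, Mki67 had a log2 fold change of 0.27 with palmitate and 0.23 with the combination. For Cenpf the values were then 0.36 with palmitate and 0.16 with the combination. All of these were smaller than with all libraries. Leaving out the highest libraries also narrows the spread that p-values measure, so calls from this fit are no support for the rises.

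**Figure D3:**
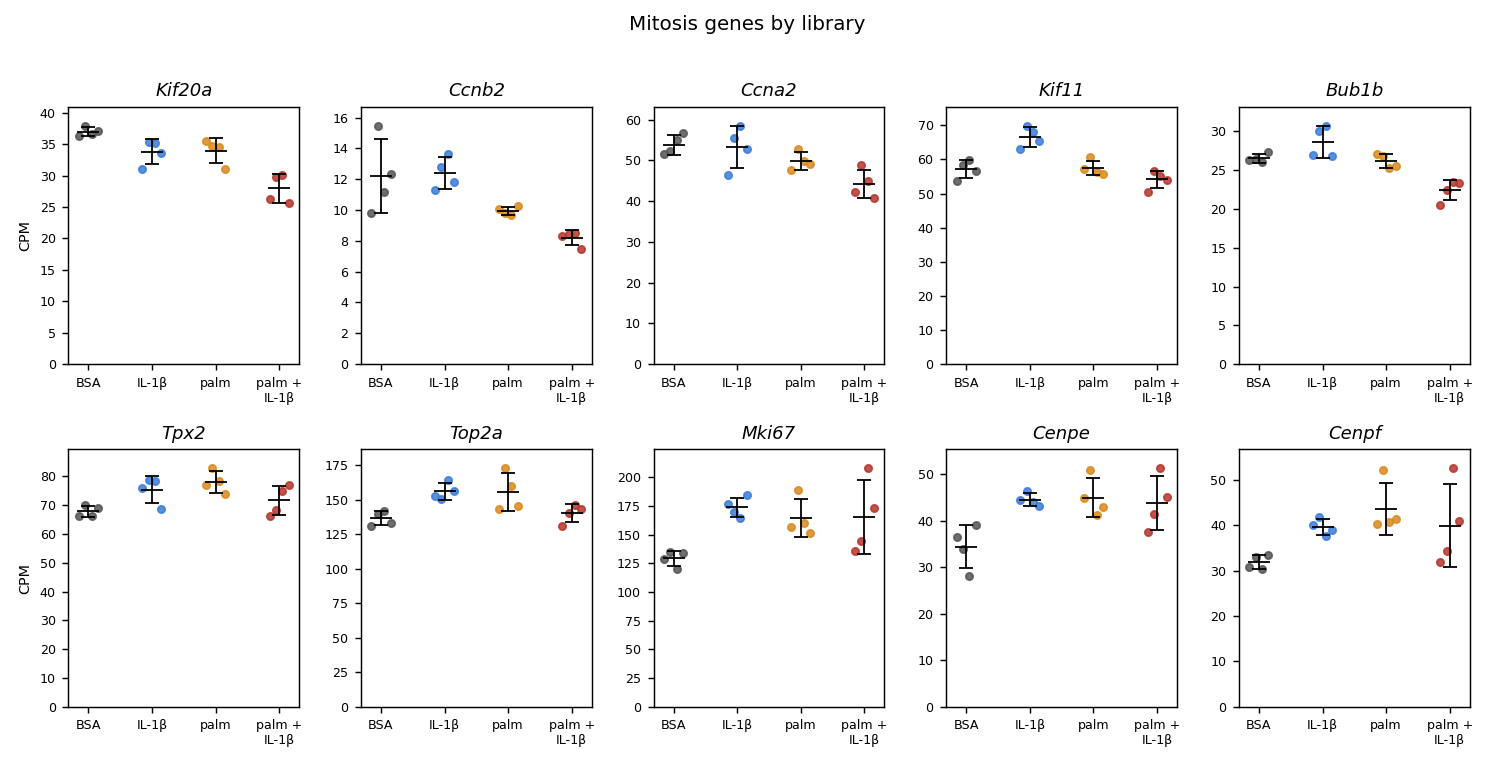
CPM (y axis, from 0) of 10 mitosis genes in BSA (control), IL-1β, palmitate (palm) and palmitate + IL-1β, 1 point per library, with the mean and SD of 4 libraries as black bars. Kif20a, Ccnb2 and Bub1b are lowest in the combination, while Mki67, Cenpe and Cenpf are higher in every treated condition on average, with 1 high library each in palmitate (10) and in the combination (15).

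Top2a, Kif11 and Tpx2 rose with IL-1β and were not called against BSA (control) with both agents. Top2a, encoding the topoisomerase that untangles sister chromatids, read 131, 140, 142 and 134 CPM in BSA (control), 153, 151, 164 and 157 CPM in IL-1β, 144, 173, 160 and 145 CPM in palmitate and 131, 141, 147 and 143 CPM in palmitate + IL-1β. Both single agents lay above the controls, at log2 0.19 each (adjusted p = 0.00344 for palmitate and 0.00809 for IL-1β), and the combination overlapped them, at 0.04 (95% interval -0.06 to 0.14). Kif11, the motor that separates spindle poles, read 53.8, 58.5, 59.9 and 56.6 CPM in BSA (control), 63, 69.9, 68.1 and 65.3 CPM in IL-1β, 57.2, 60.6, 56.4 and 55.7 CPM in palmitate and 50.6, 56.7, 55.2 and 54 CPM in palmitate + IL-1β. It rose by 0.22 with IL-1β alone (adjusted p = 0.00137), and every other condition overlapped the controls. Tpx2, a spindle assembly factor that activates Aurora A, read 66.1, 70, 66.1 and 69.1 CPM in BSA (control), 76, 78.6, 78.3 and 68.7 CPM in IL-1β, 77, 82.7, 78.4 and 73.7 CPM in palmitate and 66.3, 68.3, 74.9 and 76.9 CPM in palmitate + IL-1β. All palmitate libraries were above the controls, and the lowest IL-1β library and the combination overlapped them. Its rise was 0.20 with palmitate (adjusted p = 0.00187) and 0.15 with IL-1β (adjusted p = 0.041), the latter lost under 10 of 13 alternatives.

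Transcript length varied among the mitosis genes. Mki67, Cenpf and Cenpe have canonical transcripts of 10.27, 11.21 and 7.91 kb, and those of Ccnb2 and Ube2c have 1.576 and 0.967 kb, while Cdk1 and Kif20a, which fell with the combination, have 4.375 and 4.253 kb and Tpx2, which rose with either agent, 4.198 kb. Across the 23 genes, Spearman's rho of transcript length with log2 fold change was 0.483 for palmitate, 0.686 for IL-1β and 0.527 for the combination, and 0.0321, 0.255 and 0.0714 across 16245 tested genes, where the points share the same libraries. Within single libraries, the median log2 level of tested transcripts of up to 1748 bases was subtracted from that of transcripts of 4740 bases or more. Each gene was first centred on its mean in BSA (control), so the controls are centred by construction. The difference was -0.09 to 0.11 in BSA (control), 0.06 to 0.25 in IL-1β, -0.05 to 0.08 in palmitate and 0.02 to 0.12 in the combination. This description was chosen after values were seen, and the part of length in the rises was not tested.

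Among the 16 S phase genes, palmitate raised Tyms, Mcm3 and Ccne2 and lowered Rrm2 and E2f1. IL-1β raised Mcm3 and Rrm1, and the other 14 were not called. Palmitate + IL-1β raised Tyms and Mcm3 and lowered Rrm2, Mcm5, E2f1, Mcm6 and Mcm4. As shares of the 16, rises came to 18.8% with palmitate, 12.5% with IL-1β and 12.5% with the combination, against 19.8%, 10.1% and 24.8% of all tested genes. The falls with palmitate (12.5%) and with the combination (31.2%) stood against 17.5% and 22.5%. The median log2 fold change of the group was 0.05, 0.08 and -0.05.

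Enzymes of deoxynucleotide supply split. Rrm2, the small subunit of ribonucleotide reductase, read 35.8, 35.4, 39.3 and 37.6 CPM in BSA (control), 36.3, 37.5, 41.1 and 39 CPM in IL-1β, 32.4, 32.1, 31.4 and 30.5 CPM in palmitate and 26, 25.6, 29.8 and 22.1 CPM in palmitate + IL-1β. IL-1β overlapped the controls, palmitate lay below both and the combination below palmitate. Rrm2 fell by 0.23 on the log2 scale with palmitate (adjusted p = 0.00429) and by 0.51 with the combination (adjusted p = 4.88e-08).

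Rrm1, the large subunit of the same enzyme, read 147, 159, 158 and 162 CPM in BSA (control), 166, 182, 176 and 177 CPM in IL-1β, 152, 160, 157 and 152 CPM in palmitate and 148, 151, 158 and 157 CPM in palmitate + IL-1β. Only the IL-1β libraries were all above the controls. Rrm1 rose 1.12-fold with IL-1β alone (adjusted p = 0.00682), a call lost without BSA (control) 1, and its 95% interval was -0.09 to 0.07 with palmitate and -0.11 to 0.05 with the combination (log2). Tyms, the thymidylate synthase gene, read 8.49, 8.34, 7.59 and 9.68 CPM in BSA (control), 9.78, 9.84, 9.78 and 9.98 CPM in IL-1β, 10.1, 11.7, 12.2 and 10.6 CPM in palmitate and 10.9, 12.4, 11.8 and 12 CPM in the combination. All treated libraries were above the controls. The rise was 1.32-fold with palmitate (adjusted p = 0.000179) and 1.38-fold with the combination (adjusted p = 1.70e-05), while 1.15-fold with IL-1β was not past the threshold (adjusted p = 0.0964).

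The 6 subunits of the MCM helicase, which unwinds DNA at the replication fork, did not move as 1 unit. Mcm3 read 24.6, 25.6, 26.6 and 28 CPM in BSA (control), 29.5, 31.4, 34.3 and 27.6 CPM in IL-1β, 32.5, 32.7, 31.6 and 29.1 CPM in palmitate and 27.4, 31.7, 33.1 and 32 CPM in palmitate + IL-1β. It rose with palmitate (log2 0.27, adjusted p = 0.00132), with IL-1β (0.23, adjusted p = 0.0136) and with the combination (0.25, adjusted p = 0.00239), and only the palmitate libraries were all above the controls. The IL-1β call was lost without BSA (control) 1 or without IL-1β 7.

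Mcm4 read 55.7, 57.1, 56.2 and 58.1 CPM in BSA (control), 59.4, 62.2, 62.2 and 55.8 CPM in IL-1β, 59.8, 63.4, 60.4 and 56.5 CPM in palmitate and 51, 53, 55.3 and 50.2 CPM in palmitate + IL-1β. The combination was below all other libraries. Its fall with the combination was 0.12 on the log2 scale (adjusted p = 0.0437) and was lost under 5 of 14 alternatives, all of them leaving out 1 library. Mcm6 read 46.3, 43.6, 46.4 and 47.8 CPM in BSA (control), 40.7, 44.9, 46.9 and 41.6 CPM in IL-1β, 45.1, 46.7, 46.6 and 42.2 CPM in palmitate and 37.7, 39.8, 44.5 and 35.6 CPM in palmitate + IL-1β. Of the combination, libraries 13, 14 and 16 lay below all controls and library 15 above the lowest control. It fell by 0.22 with the combination (adjusted p = 0.00215). Mcm5 read 23.5, 27.7, 30.3 and 24.5 CPM in BSA (control), 23.5, 31, 30.1 and 29.6 CPM in IL-1β, 25.7, 25.6, 25 and 24.5 CPM in palmitate and 22.8, 24, 22.7 and 19.9 CPM in palmitate + IL-1β, and was added for its window after values were seen. Its combination overlapped the controls, with a fall of 0.24 (adjusted p = 0.0162). Mcm2 and Mcm7 were called in no contrast, at 0.05 and 0.04 in the combination, and 72.8% of the Mcm7 transcript matches other transcripts.

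E2f1, encoding the factor that drives S phase genes, read 21.7, 21.3, 21.4 and 22.6 CPM in BSA (control), 18.8, 20.3, 20.5 and 20.9 CPM in IL-1β, 18.6, 17.9, 19.1 and 20.2 CPM in palmitate and 20.3, 19, 18 and 16.3 CPM in palmitate + IL-1β. All treated libraries were below the controls, with falls of 0.20 on the log2 scale with palmitate (adjusted p = 0.0106, lost without palmitate 10) and of 0.24 with the combination (adjusted p = 0.00218), and a value of -0.11 for IL-1β (adjusted p = 0.265). Of the cyclins that start S phase, Ccne2 rose by 0.28 with palmitate and Ccne1 was called in no contrast. The licensing genes Cdc6 and Gmnn and the sliding clamp gene Pcna were also called in none, with mean levels in BSA (control) of 3.88, 1.99 and 57 CPM. Cdt1, which loads the helicase with Cdc6, passed the test only against IL-1β, where it was lower in palmitate (-0.29) and in the combination (-0.25).

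**Figure D4:**
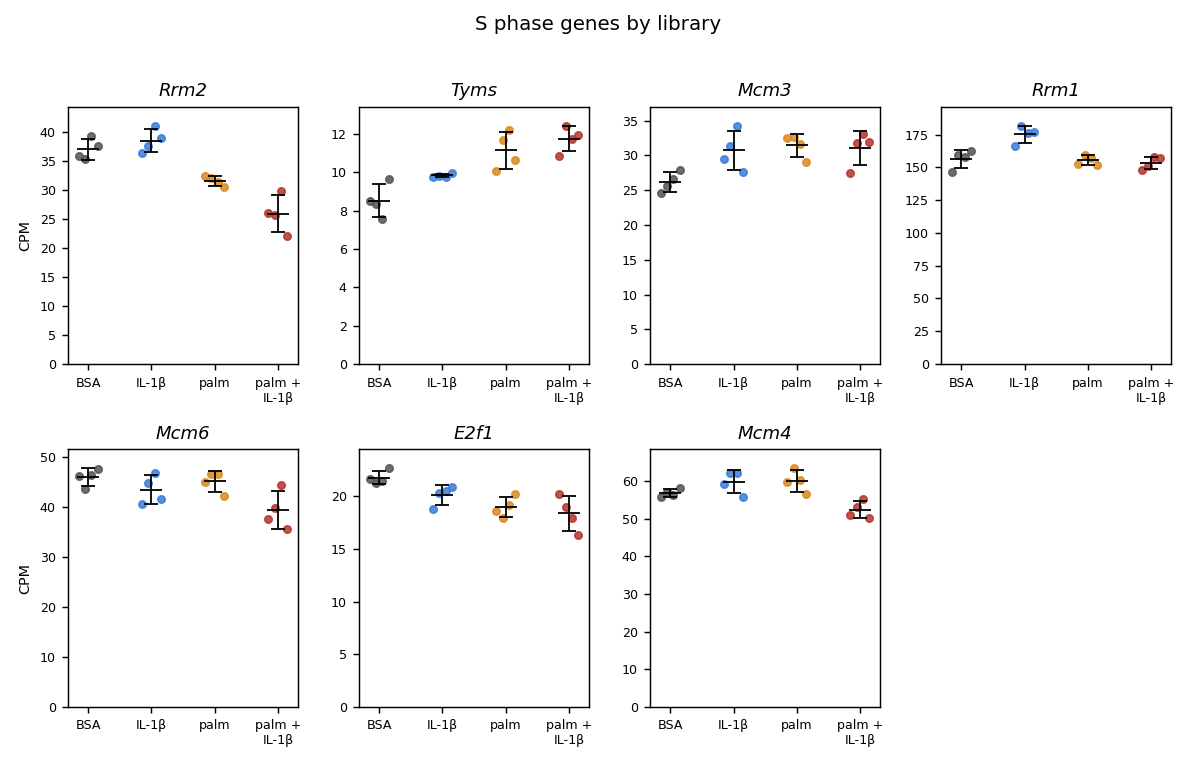
CPM (y axis, from 0) of 7 S phase genes in BSA (control), IL-1β, palmitate (palm) and palmitate + IL-1β, 1 point per library, with the mean and SD of 4 libraries as black bars. Rrm2 steps down from a mean of 37.0 CPM in BSA (control) to 31.6 CPM in palmitate and 25.9 CPM in the combination, while Tyms steps up from 8.53 to 11.2 and 11.8 CPM.

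In summed levels, the 23 mitosis genes added up to 783 to 819 CPM in BSA (control), 879 to 925 CPM in IL-1β, 837 to 958 CPM in palmitate and 738 to 909 CPM in the combination, so that both single agents lay above the controls and the combination spread across them. The 16 S phase genes added up to 584 to 609 CPM, 596 to 657 CPM, 587 to 620 CPM and 555 to 590 CPM, with every condition overlapping the controls. These sums are led by the genes with the most counts, such as Mki67 and Top2a for mitosis.

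The combination was also set against each agent. Against IL-1β, 3 of the 47 genes rose and 18 fell, where 18.9% of all tested genes rose and 16.1% fell (35% in all), with a median of -0.14 for the 47 and 0.0074 for all genes. The rises were Cdkn2b, Cdkn2a and Tyms, and the falls included 9 mitosis and 5 S phase genes, led by Cdkn2c (-0.72), Ccnb2 (-0.60) and Rrm2 (-0.57). Against palmitate, 1 rose (Cdkn2b) and 11 fell, where 5.71% rose and 4.1% fell (9.81% in all), with a median of -0.13. The 11 were Kif20a, Bub1b, Cdk1, Rrm2, Mcm4, Mcm6, Ccne2, Ccnd1, Ccnd3, Cdkn1b and Cdkn2c. The count of 12 against palmitate went to 8 without palmitate 10 and to 16 without palmitate + IL-1β 15. Libraries of the combination lay wholly below those of palmitate for 13 genes and wholly above for 1, where 7.59% and 9.16% of all tested genes did so.

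Palmitate differed from IL-1β in 12 genes, 4 higher and 8 lower, where 16.5% and 15.2% of all tested genes differed (31.6% in all). The 4 higher in palmitate were Cdkn2b (log2 0.57), Cdkn2a, Ccnd1 and Ccne2 (0.27). The 8 lower were Cdkn1b (-0.36), Cdkn1a, Cdkn2c (-0.42), Ccnb2 (-0.32), Kif11 (-0.21), Rrm1, Rrm2 (-0.29) and Cdt1 (-0.29).

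Whether the palmitate effect differed with IL-1β was asked by the interaction term, which is the effect of palmitate in the presence of IL-1β minus that in its absence. It was below 0 for 42 of the 47 genes, with a median of -0.17 where that of all tested genes was -0.0018. The 47 share their 16 libraries, so the signs are not independent. It passed the threshold for 6 genes, all below 0, where 1.83% of all tested genes were called below and 0.159% above 0 (1.99% in all). These were Top2a (-0.34 ± 0.072 SE, adjusted p = 0.00408), Kif11 (-0.31 ± 0.068, adjusted p = 0.00660), Bub1b (-0.34 ± 0.081, adjusted p = 0.0169), Mcm4 (-0.28 ± 0.067, adjusted p = 0.0169), Tpx2 (-0.28 ± 0.073, adjusted p = 0.0326) and Rrm2 (-0.34 ± 0.089, adjusted p = 0.0326).

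For Top2a the palmitate effect was 0.19 without IL-1β and -0.15 with it, each past the threshold. The first of these calls was lost under upper-quartile normalization and the second without IL-1β 7 or palmitate + IL-1β 13 (adjusted p up to 0.0544 and 0.0656). For Kif11 the effect was 0.01 and -0.30. For Bub1b the pair was -0.02 and -0.36, for Mcm4 0.08 and -0.19, for Tpx2 0.20 and -0.08, and for Rrm2 -0.23 and -0.57. Top2a and Kif11 stayed called under all 21 alternatives, whereas Bub1b was lost under 4, Mcm4 under 6, Rrm2 under 11 and Tpx2 under 12. The count of 6 fell to 3 under upper-quartile normalization and to 2 without IL-1β 7, palmitate 10 or palmitate + IL-1β 13. None of the inhibitors or D cyclins was among the 6. Across the 23 mitosis genes the interaction correlated with transcript length at a Spearman rho of -0.613, and across all tested genes at -0.172, in points that share the same libraries.

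**Figure D5:**
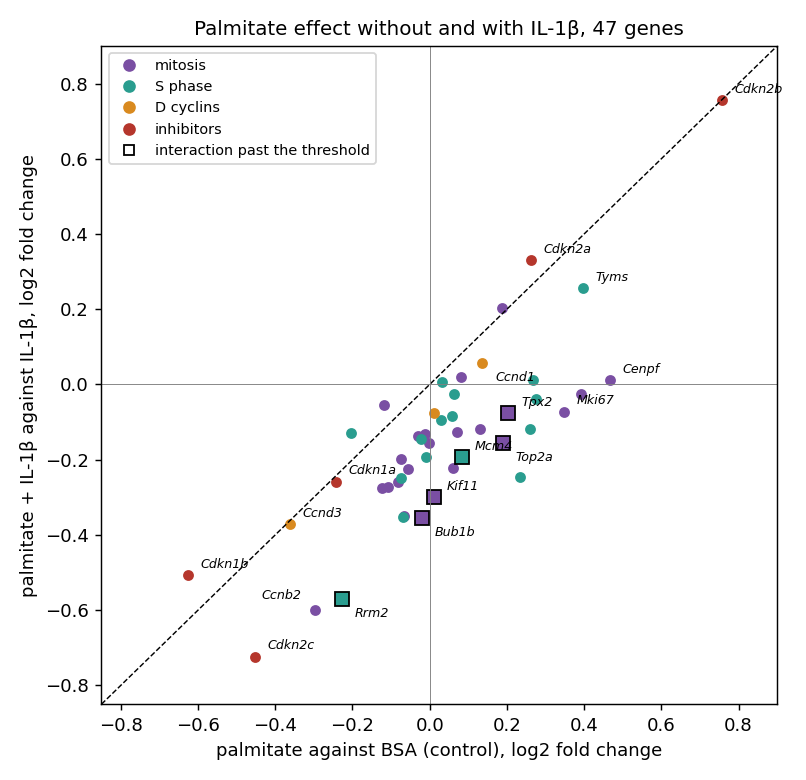
Log2 fold change of palmitate + IL-1β against IL-1β (y axis) plotted on that of palmitate against BSA (control) (x axis) for the 47 genes, coloured by role, with squares for the 6 genes whose interaction passed the threshold and a dashed line of equal effects. The comparisons share no library, 42 of the 47 points lie below the dashed line, and Cdkn2b lies on it at 0.76.

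Other genes of the same processes were counted for comparison, beside the shares of all tested genes that rose and fell with palmitate (19.8% and 17.5%), IL-1β (10.1% and 4.97%) and the combination (24.8% and 22.5%). Of 60 other mitotic genes, 8 rose and 5 fell with palmitate, 9 and 1 with IL-1β, and 6 and 19 with the combination, with medians of 0.01, 0.06 and -0.08. In this order the shares were 13.3% and 8.33%, 15.0% and 1.67%, and 10.0% and 31.7%. The phosphatase gene Cdc25b, which activates Cdk1, fell with each (log2 -0.41, -0.41 and -0.82), and Gas2l3, linked to cytokinesis, rose with IL-1β (0.66) and the combination (0.65). Of 58 other DNA replication genes, 14 rose and 3 fell with palmitate, 14 rose with IL-1β while 44 were not called, and 10 rose and 6 fell with the combination, with medians of 0.06, 0.11 and 0.02. The rises came to 24.1%, 24.1% and 17.2% of the 58, and the falls with palmitate and the combination to 5.17% and 10.3%. The origin gene Orc2 rose with each (0.33, 0.19 and 0.41), as did Dbf4, the activating subunit of the Cdc7 kinase (0.21, 0.38 and 0.32).

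Among 38 tested genes of other cell cycle regulators (39 listed), 8 rose and 5 fell with palmitate, 11 and 1 with IL-1β, and 10 and 12 with the combination. The shares were 21.1% and 13.2%, 28.9% and 2.63%, and 26.3% and 31.6%, to be read against the same background. Some changes here were larger than those of any of the 47. Myc, a growth-promoting transcription factor, stood at 8.93 ± 1.18 CPM in BSA (control), 19.8 ± 3.29 CPM in IL-1β, 20.2 ± 0.143 CPM in palmitate and 34.4 ± 4.24 CPM in the combination (mean ± SD, n = 4), with log2 rises of 1.14, 1.17 and 1.94. Cdk6, a partner of the D cyclins, rose by 1.28 with palmitate, 0.57 with IL-1β and 1.32 with the combination. Cdkn1c, which encodes the Cip/Kip inhibitor p57Kip2, fell by 1.41 with palmitate and by 1.56 with the combination, from 23.4 ± 0.909 CPM to 8.82 ± 2.16 and 7.99 ± 1.19 CPM, and for IL-1β its value was -0.14 (adjusted p = 0.411).

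Of 34 targets of p53, a list that includes Cdkn1a, 15 rose and 8 fell with palmitate, 11 and 2 with IL-1β, and 15 and 10 with the combination. The shares were 44.1% and 23.5%, 32.4% and 5.88%, and 44.1% and 29.4%, where 19.8% and 17.5%, 10.1% and 4.97%, and 24.8% and 22.5% of all tested genes rose and fell. Plk2, a stress-responsive kinase, rose by 1.35, 1.61 and 2.34 on the log2 scale, and the death receptor gene Fas by 1.71, 0.93 and 1.82. Gadd45a, a stress gene, rose by 0.82, 0.52 and 1.25, and Plk3 by 0.36, 0.90 and 1.00. Gdf15, a secreted stress factor, rose with IL-1β (1.12) and the combination (1.13), and its value for palmitate was 0.29. Its level was low, at a mean of 0.91 CPM in BSA (control), 1.99 CPM in IL-1β and 2.00 CPM in the combination. Within this list Cdkn1a was among the genes that fell.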

How the data were processed

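RNA of 16 mGF libraries was sequenced in bulk. The submitters' processing notes name Trimmomatic 0.39, STAR 2.7.10a and HTSeq 2.0.9. The values are strand-specific counts of reads per gene, not normalized, as deposited by the authors in 1 table. All 16 columns were mapped to samples by title. The table's 5 summary rows, which together came to 18.28% to 21.42% of each library, were left out of library sizes and tests. The study's methods describe oligo(dT) priming and the labels a stranded total RNA kit, so the library type was taken as unknown.

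Genes with few counts were removed (edgeR's filter, minimum count 10 and total 15). Library sizes were scaled by the trimmed mean of M values, and 1 quasi-likelihood model with a mean per condition was fitted (edgeR 4.0.16, R 4.3.3) over the 16306 remaining genes, without batch terms, since the labels give no batch. P-values were two-sided and adjusted by the Benjamini-Hochberg method over all tested genes. The procedure was also run on simulated data, for palmitate against BSA (control) only. The changes planted there were larger than most described here, so that run does not bear on small changes or on the interaction. Intervals are the fitted value ± 1.96 SE. A count of 3 corresponds to 0.0331 to 0.146 CPM, and precision from depth covers counting error only. Positions come from GENCODE vM39 on GRCm39, which holds 56323 of the 56941 gene identifiers. Promoters come from RefSeq (GRCm38.p6) and were placed on GRCm39 by exact match. Transcript similarity was taken at 95% identity or more against the other transcripts of that annotation.

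Values in every library are given for all D cyclins and inhibitors, for the 6 mitosis and the 6 S phase genes with the smallest p against BSA (control), and for each gene with a called interaction. Of the other lists, the 2 genes with the smallest p in the combination and up to 3 with a log2 fold change over 1 are named. Members and lists were chosen with earlier results of these data known. Alternatives were DESeq2 1.42.0, upper-quartile normalization, no filter, at least 10 counts in every library, fits of only the conditions compared, and leaving out each library.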

Additional observations from a re-analysis of the deposited data

Results flagged for a closer look

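For 204 groups of 4 libraries (the 47 genes and the summed levels of their roles, by condition), the highest or lowest library was set against the others by Dixon's criterion, which chance alone meets in about 1 of 20 groups, and 6 met it. Aurka stood at 15.3 CPM in BSA (control) 4, and Cdkn1a at 190 CPM in the same library. Pcna was 51.3 CPM in BSA (control) 2. Birc5 was 10.6 CPM in palmitate 9 and 12.1 CPM in palmitate + IL-1β 14. Cenpf was 52.2 CPM in palmitate 10, the deepest library.

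By the interaction term of the edgeR model, 6 genes responded to palmitate differently in the presence of IL-1β than in its absence. The log2 values were -0.344 for Top2a, -0.336 for Bub1b, -0.311 for Kif11, -0.281 for Tpx2, -0.277 for Mcm4 and -0.344 for Rrm2.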

How the results depend on the processing

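No alternative turned a called value of a gene described in full. Of their 88 called values, 62 stayed called under every alternative, and of 87 not called, 62 stayed so. DESeq2 changed 2 of 175 of these values, both into calls. Under upper-quartile normalization the count of called interactions among the 47 genes went from 6 to 3, the falls with IL-1β from 3 to 6 and the falls with the combination from 17 to 28. That scaling shifted the median of all tested genes to -0.0723 for palmitate, -0.0515 for IL-1β and -0.0771 for the combination, and the share of higher genes among all called from 53.1% to 37.1%, 67.1% to 43.5% and 52.4% to 38.7%. Leaving out 1 library at a time gave 14 to 18 called genes for palmitate, 7 to 10 for IL-1β and 19 to 26 for the combination against BSA (control). The combination gave 19 to 23 against IL-1β and 8 to 16 against palmitate, palmitate against IL-1β gave 10 to 18, and the interaction 2 to 9. Without palmitate 10 and palmitate + IL-1β 15 together, chosen after seeing the data, 16 genes were called for palmitate, 27 for the combination and 7 for the interaction. These counts are no support for the calls, since the libraries left out were the highest of their conditions for Mki67, Cenpe and Cenpf. The causes of these shifts were not tested. Genes with few counts, such as Gmnn (38 to 237 counts) and Ube2c (42 to 319), allow only wide intervals. No paired analysis was possible because the numbering runs on from 1 to 16, so that conditions share no number.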
